A study of Mus musculus with 7 samples.

Results

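Granzyme B (GZMB) was followed through 166 small regions of mouse brain that were centred on vascular amyloid. It is 1 of the 25 target proteins of an antibody panel, was chosen by name, and was read from its row in the table of counts that had not been normalized. The question was how its level stood in mice given an anti-Aβ antibody against mice given a control antibody, at each of the 2 vessel sites, and which panel proteins moved with it from region to region. The assay was GeoMx digital spatial profiling, in which antibodies on a brain section carry oligonucleotide tags that are cut loose by ultraviolet light in a chosen region and counted. All 7 animals were aged PDAPP mice, which carry a human amyloid precursor protein transgene with a familial Alzheimer mutation driven by the PDGF promoter, so every group had amyloid and no group was free of it. The mice came from an inbred line and were of both sexes, treated for 3 months between 23 and 26 months of age. 3D6 mice (n = 4: mice 72, 77, 81 and 83) received subcutaneous 3D6, an IgG2b antibody against Aβ, at 25 mg/kg in 1 injection per week. IgG mice (n = 3: mice 29, 37 and 49) received an IgG2a isotype control at 50 mg/kg in 2 injections per week, so that dose, schedule and isotype differ along with the target. The sample titles call the IgG mice untreated while their descriptions and source names give IgG, and the latter was followed.

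Granzyme B is a serine protease that cytotoxic T cells and natural killer cells store in granules together with perforin. Perforin lets it into a target cell, where it cleaves caspases and other substrates after aspartate and starts apoptosis. Outside cells it can cut matrix proteins, fibronectin among them, and it has also been found in regulatory T cells, mast cells and other leukocytes. In the mouse it is encoded by Gzmb on chromosome 14 (56258836 to 56262334, GRCm38.p6 in RefSeq). The measured quantity is the protein bound by the antibody over a whole region, so more GZMB-bearing cells and more GZMB per cell cannot be told apart.

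Each region was a circle of 100 μm around an amyloid-positive vessel, found with fluorescent antibodies to amyloid and laminin. Regions 1 to 12 of a mouse lay in the leptomeninges and regions 13 to 24 on penetrating vessels. In IgG mice 34 leptomeningeal regions and 36 on penetrating vessels had values, and in 3D6 mice 48 of each kind did. Mouse 37 had 10 leptomeningeal regions in place of 12. Counts are given here as the log2 ratio of GZMB to the geometric mean of 3 negative-control antibodies. A value of 0 is that mean level, and each step of 1 doubles the ratio. The controls differed: over the 4 combinations of site and treatment Rt IgG2b stood at 0.42 to 0.46 times their mean. Rb IgG stood at 1.30 to 1.72 times and Rt IgG2a at 1.27 to 1.83 times. In leptomeninges, from IgG to 3D6 mice, Rb IgG went from 1.72 to 1.38 and Rt IgG2a from 1.27 to 1.66. GZMB against a single control was not tested. No tissue without amyloid was measured, so the negative controls are the only background. The vessel wall markers were well above background: smooth muscle actin (SMA) stood at 76.8 to 807 times the negative controls over the 4 combinations of site and treatment, and the endothelial protein CD31 at 12.7 to 28.6 times. The median total count per region was between 9650 and 22754 in these 4 combinations. In 5 penetrating regions and 1 leptomeningeal region of mouse 37 the negative controls exceeded 10 times their median over all regions, and differences in GZMB level that rest on that mouse are given with and without them.

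GZMB lay above the negative controls in every region of every mouse. The lowest leptomeningeal region stood at 1.85 and the lowest penetrating region at 1.23 on the log2 ratio scale, in mice 29 and 37, respectively. The medians over all regions were 4.69 in the leptomeninges and 4.89 on penetrating vessels, and the highest single region, at 6.87, was leptomeningeal in 3D6 mouse 72. Between 103 and 3526 GZMB counts were recorded per region. Treating the scaled counts as counts, the counting error of the log2 ratio had a median of 0.20 to 0.31 in the 14 combinations of mouse and site, against an SD between regions of 0.38 to 1.47. The 4 mean levels ran in the order IgG leptomeninges (4.05), IgG penetrating vessels (4.23), 3D6 penetrating vessels (5.04) and 3D6 leptomeninges (5.09). The first 2 and the last 2 in this order are neighbours that differed by 0.18 and 0.05, less than the spread between mice.

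**Figure D1:**
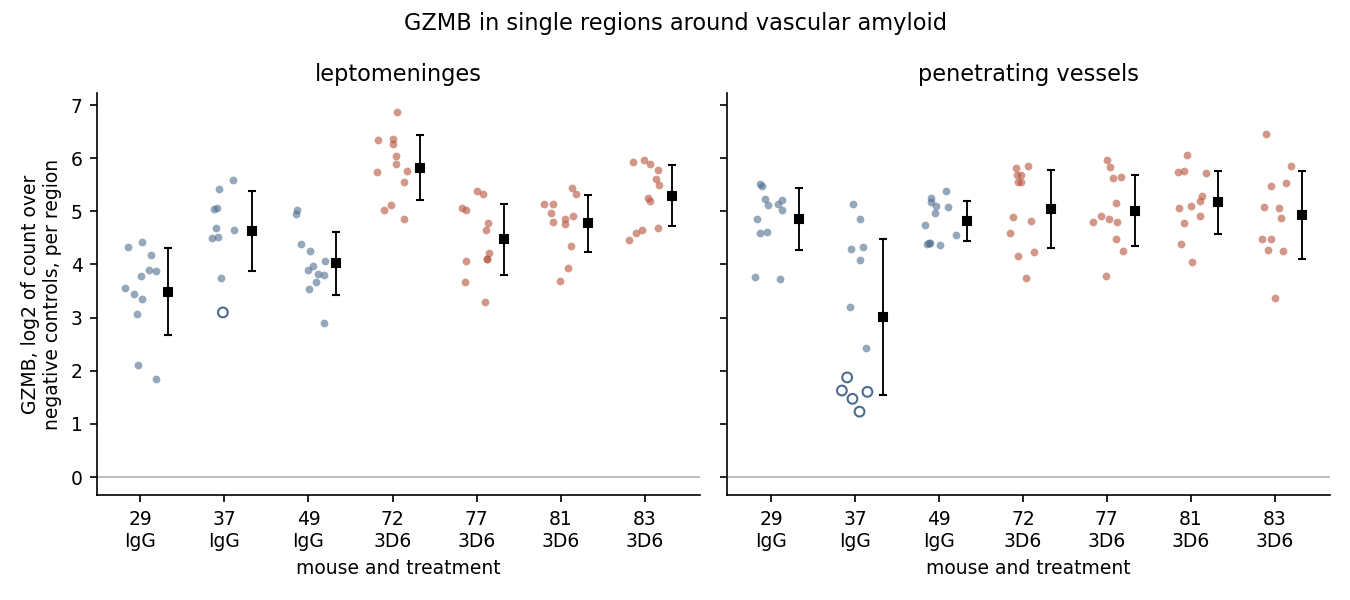
GZMB in each region (dots, log2 of the count over the negative controls) by mouse, with IgG mice in blue and 3D6 mice in red, and squares with bars for the mean and SD over the regions of a mouse. Open circles mark regions of high background, all in mouse 37, and the 5 on its penetrating vessels lie between 1.23 and 1.88.

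In the leptomeninges, the mean GZMB level of 3D6 mice was 2.06 times that of IgG mice, a difference that did not pass the test over the panel. The IgG mice had mean log2 ratios of 3.49 (mouse 29), 4.63 (mouse 37) and 4.02 (mouse 49). The 3D6 mice had 5.82 (mouse 72), 4.47 (mouse 77), 4.78 (mouse 81) and 5.29 (mouse 83). Mouse 72 was the highest and mouse 29 the lowest, and the groups overlapped through mouse 77, which lay below mouse 37 (24.0% of the 25 targets had groups without overlap). The group means were 4.05 ± 0.57 (SD, n = 3) and 5.09 ± 0.59 (SD, n = 4), a difference of 1.04 (standard error 0.41, 95% interval 0.12 to 1.96). In limma, adjusted over the 25 targets by Benjamini and Hochberg, p was 0.0301 before and 0.0923 after adjustment, and the two-sided exact permutation test over the mice gave p = 0.114. With 3 mice against 4, the smallest p this exact test can give is 0.029. At an adjusted p of 0.05, 20.0% of the targets were called at this site (16.0% as higher in 3D6 mice, and 40.0% in either direction before adjustment), and GZMB had rank 8 in the size of its difference. The median difference over the panel was 0.57.

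The leptomeningeal difference varied between the mice. The mice were read out in runs on 3 dates, each with 1 IgG mouse, so run and IgG mouse cannot be told apart. Mouse 72 stood 2.33 above mouse 29 in their run, mice 81 and 83 stood 1.01 above mouse 49, and mouse 77 stood 0.16 below mouse 37. Without mouse 37 the difference was 1.33 and passed in limma (adjusted p = 0.0495), and without mouse 29 it was 0.76 (adjusted p = 0.253). When single regions were fitted with the mouse as block, the difference was 1.05 and passed as well (adjusted p = 0.0264 in limma). That fit takes its degrees of freedom from regions, although treatment differs only between mice. It called 12 of the 25 targets, against 5 in the main fit. Without the high-background region of mouse 37 the difference of mouse means was 0.98 (exact permutation test, p = 0.143). Over single regions, 44 of the 48 leptomeningeal regions of 3D6 mice (91.7%) lay above the median IgG region, and 13 lay above the highest one. On penetrating vessels the counts were 34 of 48 (70.8%) and 17. Regions of a mouse are not independent, so these counts are descriptions, and they were not made for other targets. All 10 leptomeningeal regions of mouse 37 and 9 of 12 in mouse 49 carried the authors' warning for few nuclei, against 7 of 48 in 3D6 mice. Without the regions that carried it, which left 2 IgG mice, the difference was 1.46 (adjusted p = 0.0324 in limma; exact permutation test, p = 0.067, the smallest it can give).

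Around penetrating vessels, all 4 3D6 mice had higher GZMB than any IgG mouse, by a narrow margin against mice 29 and 49. The IgG mice had mean log2 ratios of 4.86 (mouse 29), 3.01 (mouse 37) and 4.82 (mouse 49). The 3D6 mice had 5.05 (mouse 72), 5.01 (mouse 77), 5.17 (mouse 81) and 4.93 (mouse 83), the closest set of values among the 4 combinations. IgG mice averaged 4.23 ± 1.05 (SD, n = 3) and 3D6 mice 5.04 ± 0.10 (SD, n = 4). This difference of 0.81 (standard error 0.45, 95% interval -0.22 to 1.84) did not pass in limma (adjusted p = 0.754), while the exact permutation test gave p = 0.029, the smallest it can. Groups failed to overlap for 12.0% of the 25 targets at this site. None of the targets passed the adjusted threshold in limma (0.0%, likewise without moderation of the variances, and 1 with single regions fitted), with 2 at an unadjusted p under 0.05 (8.0%), and GZMB had the third largest difference beside a panel median of -0.02.

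The size of the penetrating difference rested on mouse 37. Within the runs, mouse 77 stood 2.00 above mouse 37, mice 81 and 83 stood 0.24 above mouse 49, and mouse 72 stood 0.19 above mouse 29. Without mouse 37 the difference was 0.20 (adjusted p = 0.757 in limma). In the 5 high-background regions of mouse 37, GZMB ratios were 1.23 to 1.88, although the GZMB counts there, 1848 to 3526, were above those of the mouse's other 7 regions (119 to 893). The negative controls in those 5 regions were at 504 to 1429 counts, against 9.73 to 28.1 in the other 7. Leaving them out raised the mouse to 4.05, and the groups still did not overlap (difference 0.47, exact permutation test, p = 0.029), as for 12.0% of the targets under that choice.

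How much of the treatment difference appeared depended on what GZMB was divided by. As an undivided log2 count, GZMB in the leptomeninges of IgG mice was 8.50 ± 0.73 (SD, n = 3) and that of 3D6 mice 8.94 ± 0.54 (SD, n = 4), a difference of 0.43 (exact permutation test, p = 0.40). The negative controls moved the other way there, from a mean log2 count of 4.46 to 3.84, and were below the lowest IgG mouse in all 4 3D6 mice (exact permutation test, p = 0.057). Divided instead by 3 housekeeping proteins, the leptomeningeal difference was 0.20. So the ratio of 2.06 was made up of a count that was 1.35 times higher and a background that was lower, and the share of each that belongs to treatment was not tested. Leaving out the division moves all 25 targets by the same amount, -0.61 in the leptomeninges and -0.96 on penetrating vessels, and so does not alter the rank of GZMB among the signed differences.

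On penetrating vessels the direction of the undivided count turned on the 5 high-background regions of mouse 37. For IgG mice its mean was 8.81 ± 0.61 (SD, n = 3) and for 3D6 mice 8.67 ± 0.24 (SD, n = 4), a difference of -0.14 (exact permutation test, p = 0.771). Without those regions it was 0.34 (8.33 ± 0.27 in 3 IgG mice, exact permutation test, p = 0.143). Mouse 37 was the highest of the 7 on this scale with them, at 9.50, and the lowest without them, at 8.06. The housekeepers also stood lower in 3D6 mice here, at 9.92 against 10.92 (exact permutation test, p = 0.086). With division by the housekeepers the separation held: IgG mice stood at -2.11 ± 0.37 (SD, n = 3) and 3D6 mice at -1.25 ± 0.31 (SD, n = 4), with no overlap and a difference of 0.86 (exact permutation test, p = 0.029, adjusted p = 0.909 in limma). Without the high-background regions the groups still did not overlap under that division, with a difference of 0.69 (exact permutation test, p = 0.057). Over all regions GZMB was the single target without overlap under that division (4.0%).

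**Figure D2:**
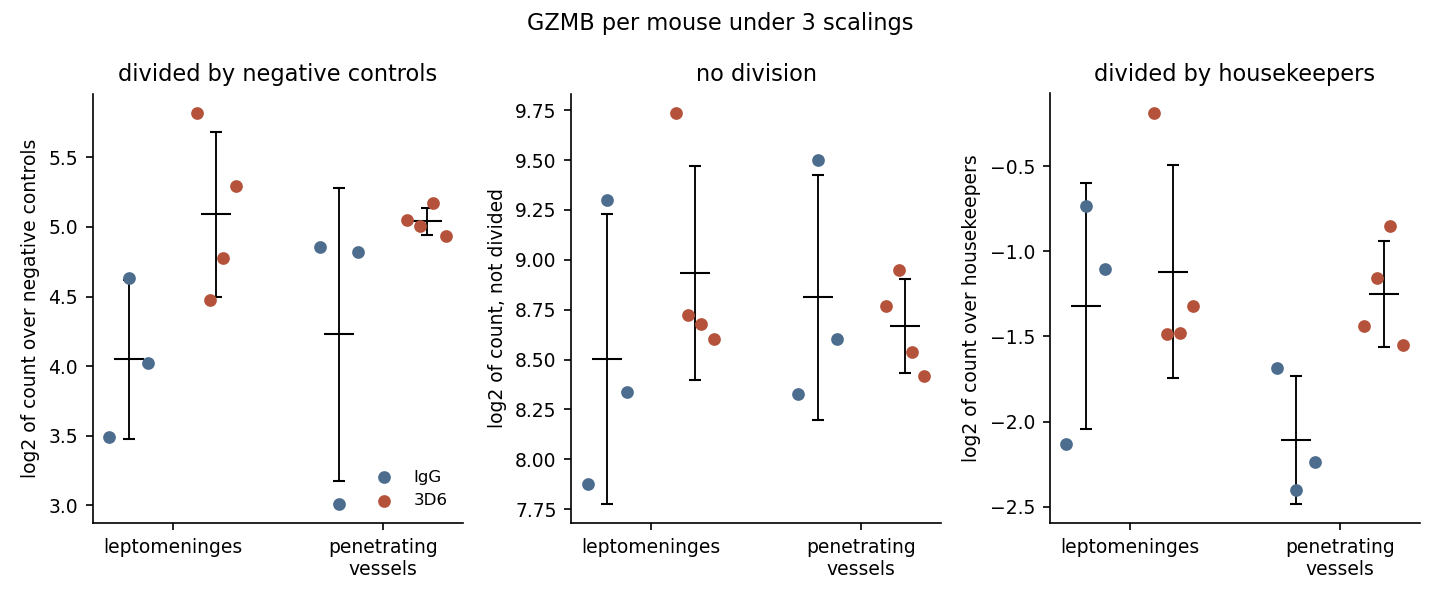
Mean GZMB of each mouse (dots, IgG in blue and 3D6 in red) at both sites as log2 ratio to the negative controls, as undivided log2 count and as log2 ratio to the housekeepers, with the group mean and SD in black. The groups are apart on penetrating vessels with either division and, over all regions, overlap there without one.

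The treatment difference of GZMB was not shown to differ between the sites. The difference in the leptomeninges exceeded the one on penetrating vessels by 0.23 (standard error 0.67, 95% interval -1.27 to 1.73, adjusted p = 0.777 in limma; exact permutation test, p = 0.857), and by 0.52 without the high-background regions. In this contrast 28.0% of the targets were called, and the panel median was 0.63. GZMB had rank 22 of 25 in size, well below the matrix protein fibronectin, whose contrast of 2.06 was the highest. Within the runs the contrast was 0.78, -2.15 and 2.13, in the order of the run dates, so its direction was opposite in the run of mice 37 and 77. With housekeepers it was -0.66.

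Between the sites themselves, GZMB had no common direction. It was lower in the leptomeninges than on penetrating vessels by 1.36 in mouse 29, 0.79 in mouse 49, 0.54 in mouse 77 and 0.39 in mouse 81. It was higher there by 1.62 in mouse 37, 0.77 in mouse 72 and 0.36 in mouse 83. The mean over the 7 mice was -0.05 (exact sign-flip permutation test, p = 0.891, where the smallest possible is 0.016), and with the groups weighted equally it was -0.06 (adjusted p = 0.885 in limma). Over the whole panel 52.0% of the targets differed between the sites. In IgG mice the mean of -0.18 joined 2 mice below 0 with mouse 37 above it, and without mouse 37 it was -1.08 and passed (adjusted p = 0.0292 in limma, on 2 IgG mice). Without its high-background regions the IgG mean was -0.47, and the mean with the groups weighted equally was -0.21. Mouse 37 then stood at 4.80 in the leptomeninges and 4.05 on penetrating vessels, still the opposite way from mice 29 and 49.

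Within a mouse, vessels of the same site carried unlike GZMB levels. From its lowest to its highest leptomeningeal region, GZMB spanned 5.98-fold in mouse 29, 5.65-fold in mouse 37 and 4.40-fold in mouse 49. In 3D6 mice the leptomeningeal span was 4.06-fold, 4.28-fold, 3.37-fold and 2.84-fold in mice 72, 77, 81 and 83. The SD between leptomeningeal regions of IgG mice averaged 0.72 ± 0.11 (SD, n = 3) and that of 3D6 mice 0.60 ± 0.06 (SD, n = 4), a difference of -0.12 (exact permutation test, p = 0.171) that turned positive for undivided counts. On penetrating vessels the SD was 0.59, 1.47 and 0.38 in IgG mice 29, 37 and 49, and 0.73, 0.67, 0.60 and 0.83 in 3D6 mice 72, 77, 81 and 83. There mouse 37 had the widest spread, with a 15.0-fold span, and mouse 49 the narrowest, with 2.02-fold. The other 7 regions of mouse 37 spanned 6.60-fold with an SD of 0.95, and without its high-background regions the difference in SD went from -0.11 to 0.067. Without mouse 37 it was 0.22. Mice accounted for an estimated 34.0% (IgG) and 47.2% (3D6) of the leptomeningeal variance and for 54.0% (IgG) and 0.0% (3D6) of that on penetrating vessels, high-background regions included. The estimate for penetrating vessels of 3D6 mice is cut off at 0 and rests on 4 mice, so it does not show that the mice were alike. As undivided log2 counts the means of these mice ran from 8.42 to 8.95.

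Regions near each other on the section had a higher r of GZMB on penetrating vessels than in the leptomeninges, a difference that was not tested. After subtraction of the mean of its mouse, GZMB in a region and in its nearest neighbour of the same mouse and site had an r of 0.51 over 36 penetrating regions of IgG mice and 0.43 over 48 of 3D6 mice. In the leptomeninges it was 0.07 over 34 and 0.22 over 48 regions. For undivided counts it was 0.77 and 0.59 on penetrating vessels and 0.37 and -0.14 in the leptomeninges, of IgG and 3D6 mice. These are descriptions, since neighbouring regions share a mouse and a section. Both values for penetrating vessels of IgG mice include the 5 high-background regions of mouse 37, and no value without those regions was computed. The number of nuclei had an r of -0.20 to 0.12 with the GZMB ratio in the 4 combinations.

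The lineage proteins of T cells, CD3e, CD8a and CD4, stood at or not far above the negative controls, or below them, in the regions where GZMB was measured. Antibodies differ in strength, so these ratios do not rank amounts of protein between targets. CD3e, the signalling chain of the T-cell receptor complex, stood at 1.70 to 2.63 times the negative controls over the 4 combinations of site and treatment and lay below them in 3 of 82 leptomeningeal and 0 of 84 penetrating regions. CD8a, the co-receptor of cytotoxic T cells, stood at 1.03 to 1.27 times and lay below the negative controls in 24 of 82 leptomeningeal and 31 of 84 penetrating regions. CD4, the co-receptor of helper T cells, was below them in 72 regions at each site. Of the other proteins in the T-cell list, FOXP3, CD28 and PD-1 were below them in most regions, and CTLA4, at 2.19 to 6.57 times, in 0 of 82 and 0 of 84. GZMB itself was at 16.6 to 34.1 times the negative controls. No antibody to a natural killer or mast cell marker is among the 25 targets, so these cells were not measured.

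GZMB was read against the other proteins of its lists. Of 7 T-cell proteins (CD3e, CD4, CD8a, FOXP3, CD28, CTLA4 and PD-1), 0 were called higher and 0 lower in 3D6 mice at either site (limma; 2 of 7 in the leptomeninges and 1 on penetrating vessels at an unadjusted p under 0.05, beside 40.0% and 8.0% of all 25 targets). The 2 in the leptomeninges went opposite ways, CTLA4 at -0.86 and CD28 at 1.17. Their median difference was 0.20 in the leptomeninges, where CD3e differed by 0.20 and CD8a by 0.10, and -0.10 on penetrating vessels. Of 7 myeloid proteins, 2 were higher in the leptomeninges, the integrin chain CD11b (1.59) and the macrophage glycoprotein Adgre1 (1.48), with a list median of 0.78, beside 16.0% of all targets called higher and a panel median of 0.57. The leukocyte phosphatase CD45 (2.46) and fibronectin (2.64), each alone in its list, were also higher there. As a ratio to CD3e in the same region, in which the negative controls cancel, GZMB stood at 3.28 ± 0.70 (SD, n = 3) in leptomeninges of IgG mice and 4.12 ± 0.46 (SD, n = 4) in those of 3D6 mice, with mice from 2.53 to 3.90 and from 3.56 to 4.67 on the log2 scale. As a ratio to CD45 it was 2.44 ± 0.32 (SD, n = 3) and 1.02 ± 0.67 (SD, n = 4) there. So in leptomeninges of 3D6 mice mean GZMB stood lower beside CD45 and, with overlapping mice, higher beside CD3e. On penetrating vessels the ratio to CD45 was 2.77 ± 1.23 (SD, n = 3) in IgG and 2.61 ± 0.32 (SD, n = 4) in 3D6 mice. That to CD3e was 2.94 ± 0.79 (SD, n = 3) and 3.65 ± 0.37 (SD, n = 4). These ratios were not tested.

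Region by region, GZMB was compared with each of the 24 other targets by Pearson r of the log2 ratios, with mouse means subtracted. The regions of a group share 3 or 4 mice and both values share the divisor, so r is a description and carries no p. The median r over the 24 partners was 0.33 in leptomeninges of IgG mice, 0.22 in those of 3D6 mice, 0.24 on penetrating vessels of IgG mice and 0.18 on those of 3D6 mice. Any 2 of the 25 targets had a median r of 0.21, 0.20, 0.23 and 0.13 in the same order, so on the ratio scale GZMB was close to a typical pair of the panel in how far it moved with the rest. The ratio itself went down where the negative controls went up, with an r of -0.74, -0.39, -0.83 and -0.67, while the undivided count went up with them (0.49, 0.39, 0.90 and 0.38). For this reason the r of undivided log2 counts and, where 1 mouse carries a value, the r of each mouse are given for the main partners. For undivided counts any 2 of the 25 targets had a median r of 0.64, 0.36, 0.91 and 0.47 in the same order.

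**Figure D3:**
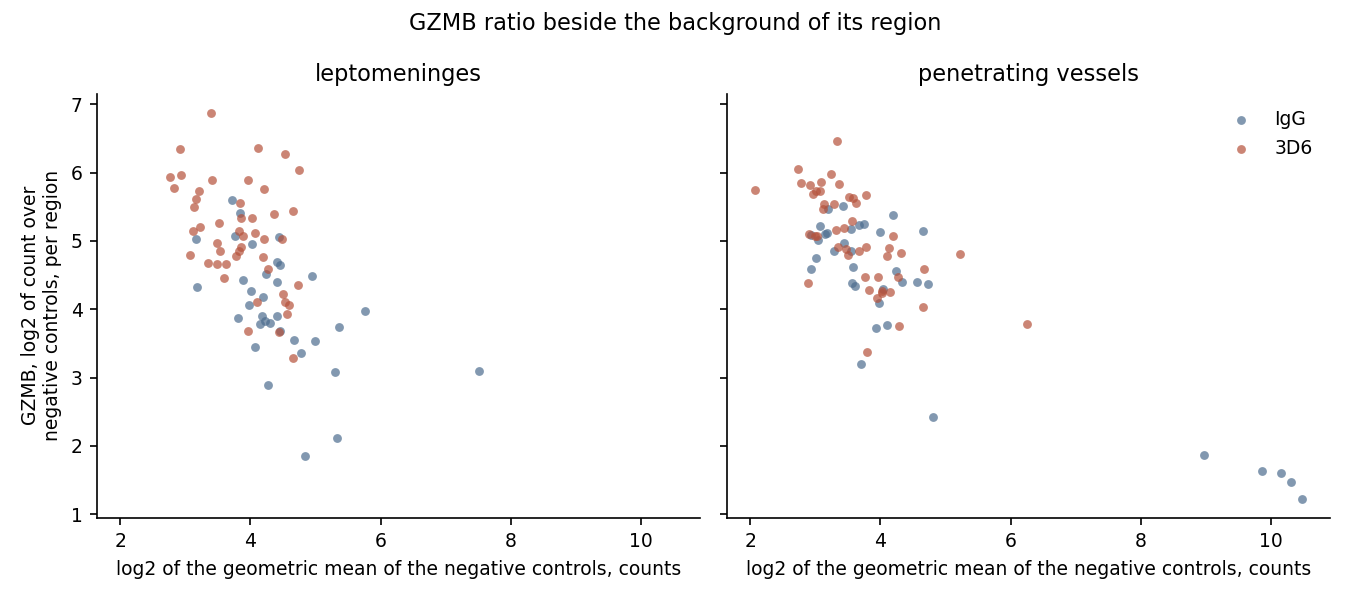
GZMB log2 ratio of each region against the log2 geometric mean of the negative controls in that region, IgG in blue and 3D6 in red. The ratio falls toward the right at both sites (r from -0.83 to -0.39 within mice), and the 5 points far right on penetrating vessels are regions of mouse 37.

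BatF3, a transcription factor of the dendritic cells that present antigen to CD8 T cells, was the partner with the highest mean r over the 4 combinations. In leptomeninges of IgG mice r was 0.74, with 0.90, 0.51 and 0.72 in mice 29, 37 and 49. In leptomeninges of 3D6 mice it was 0.53, with 0.08, 0.42, 0.81 and 0.72 in mice 72, 77, 81 and 83. On penetrating vessels it was 0.37 in IgG and 0.54 in 3D6 mice. The r was positive in 14 of 14 combinations of mouse and site, and with housekeepers it was 0.38 to 0.68. Undivided, it was 0.82 and 0.53 in leptomeninges of IgG and 3D6 mice, where the median pair of targets had 0.64 and 0.36. On penetrating vessels it was 0.92 and 0.47, close to the 0.91 and 0.47 of the median pair. In leptomeningeal mouse 29, for example, BatF3 stood at 1.31 in the region of lowest GZMB and at 3.49 in the region of highest GZMB. In mouse 72 it went from 2.73 to 2.33 between its lowest and highest, the exception among the 14.

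CD3e was the highest partner of GZMB on penetrating vessels of 3D6 mice, with an r of 0.64. It was 0.76, 0.82, 0.38 and 0.60 in mice 72, 77, 81 and 83, and 0.63 for undivided counts. There, CD3e went from 1.14 in the region of lowest GZMB to 2.42 in that of highest GZMB in mouse 72, and from 1.33 to 2.24 in mouse 77. On penetrating vessels of IgG mice r was 0.51, with 0.11, 0.92 and 0.44 in mice 29, 37 and 49, and 0.39 without the high-background regions. In leptomeninges it was 0.50 in IgG and 0.23 in 3D6 mice, where mouse 72 had an r of -0.50. Of the 300 pairs of targets, 5 had an r at least that high on penetrating vessels of 3D6 mice, GZMB and CD3e included. Whether r differed between groups or sites was not tested.

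**Figure D4:**
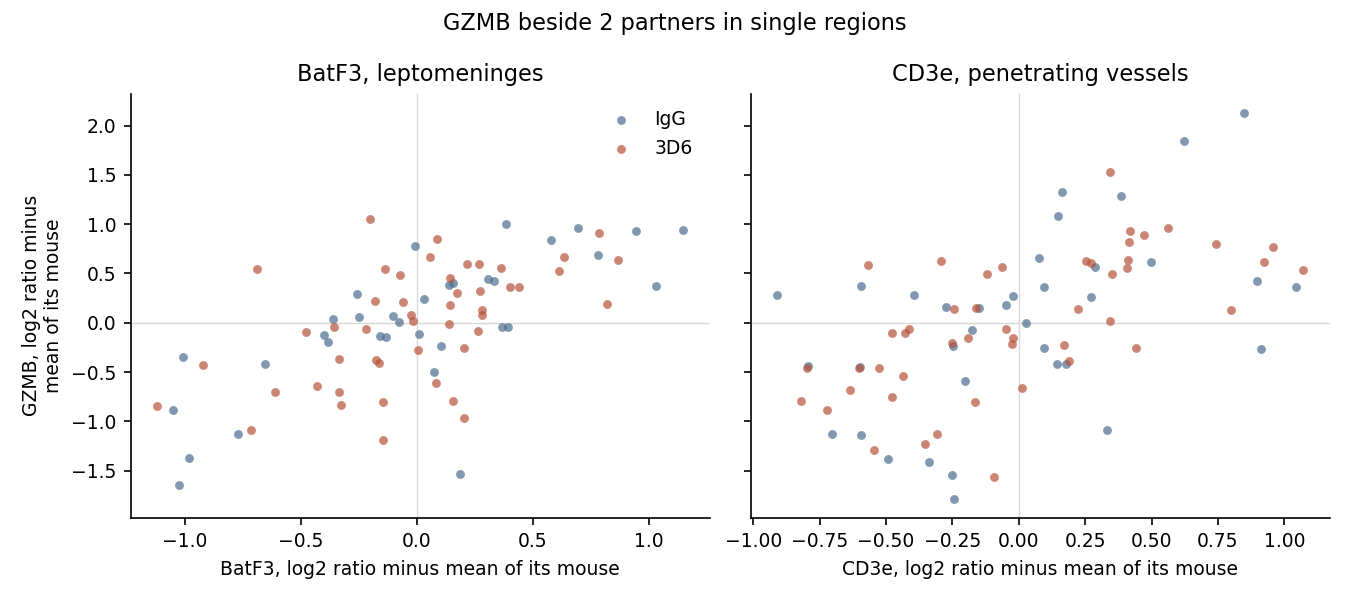
GZMB against BatF3 in the leptomeninges and against CD3e on penetrating vessels, each as log2 ratio minus the mean of its mouse, with 1 point per region, IgG in blue and 3D6 in red. Regions high in the partner tended to be high in GZMB in both groups (r = 0.74 and 0.53 for BatF3, 0.51 and 0.64 for CD3e).

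On the ratio scale the other T-cell proteins named here had a lower r with GZMB than CD3e had, with 1 exception, CTLA4 in leptomeninges of 3D6 mice. For undivided counts CD8a (0.46) was above CD3e (0.39) in leptomeninges of 3D6 mice, and CD4 (0.60) above CD3e (0.57) in those of IgG mice. On penetrating vessels of IgG mice the undivided r of CD28 was 0.911, beside 0.908 for CD3e. CD8a, the co-receptor carried by classical granzyme B-bearing T cells, had an r of 0.07 and 0.22 in leptomeninges of IgG and 3D6 mice and of 0.28 and 0.15 on penetrating vessels, at levels near the negative controls. CD4 ranged from -0.32 to 0.33, and CD28, which co-stimulates T cells, from -0.35 to 0.16. CTLA4, the inhibitory receptor that competes with CD28 for its ligands, was among the lowest in leptomeninges of IgG mice (-0.26) and stood at 0.25 in those of 3D6 mice. The -0.26 became 0.28 for undivided counts and 0.21 with housekeepers. Over the 7 T-cell proteins the median r was 0.13 and 0.16 in leptomeninges of IgG and 3D6 mice, and -0.05 and 0.15 on penetrating vessels. The negative values of CD4 and CD28 on penetrating vessels of IgG mice came with mouse 37: without it they were 0.17 and 0.11.

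With division by the negative controls the median r was higher among myeloid than among T-cell proteins in all 4 combinations of site and treatment. This difference was not tested, and it turned for undivided counts on penetrating vessels of IgG mice (0.88 against 0.91). It also turned with housekeepers in leptomeninges of 3D6 mice, where Adgre1, the median myeloid protein, had 0.30 and PD-1, the median T-cell protein, 0.37. The median r of the 7 myeloid proteins was 0.35 and 0.20 in leptomeninges of IgG and 3D6 mice, and 0.37 and 0.32 on penetrating vessels. With division by the negative controls, the median T-cell protein was FOXP3 at both sites in IgG mice. It was PD-1 in leptomeninges and CD8a on penetrating vessels of 3D6 mice. FOXP3 and PD-1 lay below the negative controls in most regions, and CD8a stood near them. CD3e was the only T-cell protein with an r above the myeloid median in all 4 combinations. CD14, the lipopolysaccharide co-receptor of monocytes and macrophages, had an r of 0.67 in leptomeninges and 0.65 on penetrating vessels of IgG mice, and 0.14 and 0.46 in 3D6 mice, where it was -0.06 in leptomeninges for undivided counts. On penetrating vessels of IgG mice it was 0.26, 0.83 and -0.0026 in mice 29, 37 and 49, and 0.13 without mouse 37, and in their leptomeninges it was 0.12 with housekeepers. MHC II, the peptide display of antigen-presenting cells to helper T cells, had an r of 0.39 to 0.54 in the 4 combinations of site and treatment and was positive in 14 of 14 combinations of mouse and site, with its own level at 0.81 to 1.35 times the negative controls. On penetrating vessels of 3D6 mice the r of MHC II was 0.09 for undivided counts and -0.12 as a partial r given the negative controls. CD11b, the integrin chain of microglia, macrophages and neutrophils, was the highest partner on penetrating vessels of IgG mice (0.69) and stood between 0.20 and 0.35 elsewhere. The 0.69 was 0.44, 0.88 and 0.08 in mice 29, 37 and 49, 0.28 without the high-background regions and 0.22 as a partial r given the negative controls. Adgre1 was at 0.34 and 0.31 in leptomeninges of IgG and 3D6 mice and at 0.39 and 0.09 on penetrating vessels. Ly6G/Ly6C, an antigen of neutrophils and monocytes, ranged from -0.05 to 0.53. The scavenger receptor CD163 was the lowest partner on penetrating vessels of 3D6 mice (-0.40, negative in 4 of 4 mice) and the fifth highest in their leptomeninges (0.42, positive in 4 of 4 mice). Its own level there lay below the negative controls, at 0.71 and 0.60 times them, respectively. For undivided counts its r on penetrating vessels of 3D6 mice was 0.13. CD45 had an r of 0.23 and 0.12 in leptomeninges and 0.48 and 0.19 on penetrating vessels.

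Fibronectin was the second highest partner in leptomeninges of 3D6 mice, where its own level was called higher. Its r was 0.50 there, with 0.34 to 0.74 in the 4 mice, and 0.68, the highest of all partners, for undivided counts. In mouse 72 fibronectin stood at 2.22 in the region of lowest GZMB and at 5.50 in that of highest GZMB, and in mouse 81 at 2.11 and 5.05. In leptomeninges of IgG mice r was 0.32, and on penetrating vessels it was 0.31 in IgG and 0.02 in 3D6 mice.

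Of the vessel wall proteins, SMA, the actin of smooth muscle cells, was the partner with the lowest mean r. It was -0.18 and -0.20 in leptomeninges of IgG and 3D6 mice and -0.02 and -0.31 on penetrating vessels, and positive in 5 of 14 combinations of mouse and site. For undivided counts it was positive in all 4 combinations of site and treatment, at 0.06 to 0.34. CD31 stood between -0.15 and 0.17. CD34, a sialomucin of endothelial and progenitor cells, had an r of 0.37 to 0.66 over site and treatment, positive in 14 of 14 combinations of mouse and site, and of 0.20 to 0.90 for undivided counts. In leptomeninges of 3D6 mice the undivided r of CD31 (0.28) was above that of CD34 (0.20), and the median pair of targets had 0.36. On penetrating vessels of IgG mice the undivided 0.90 of CD34 was near the 0.91 of the median pair.

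**Figure D5:**
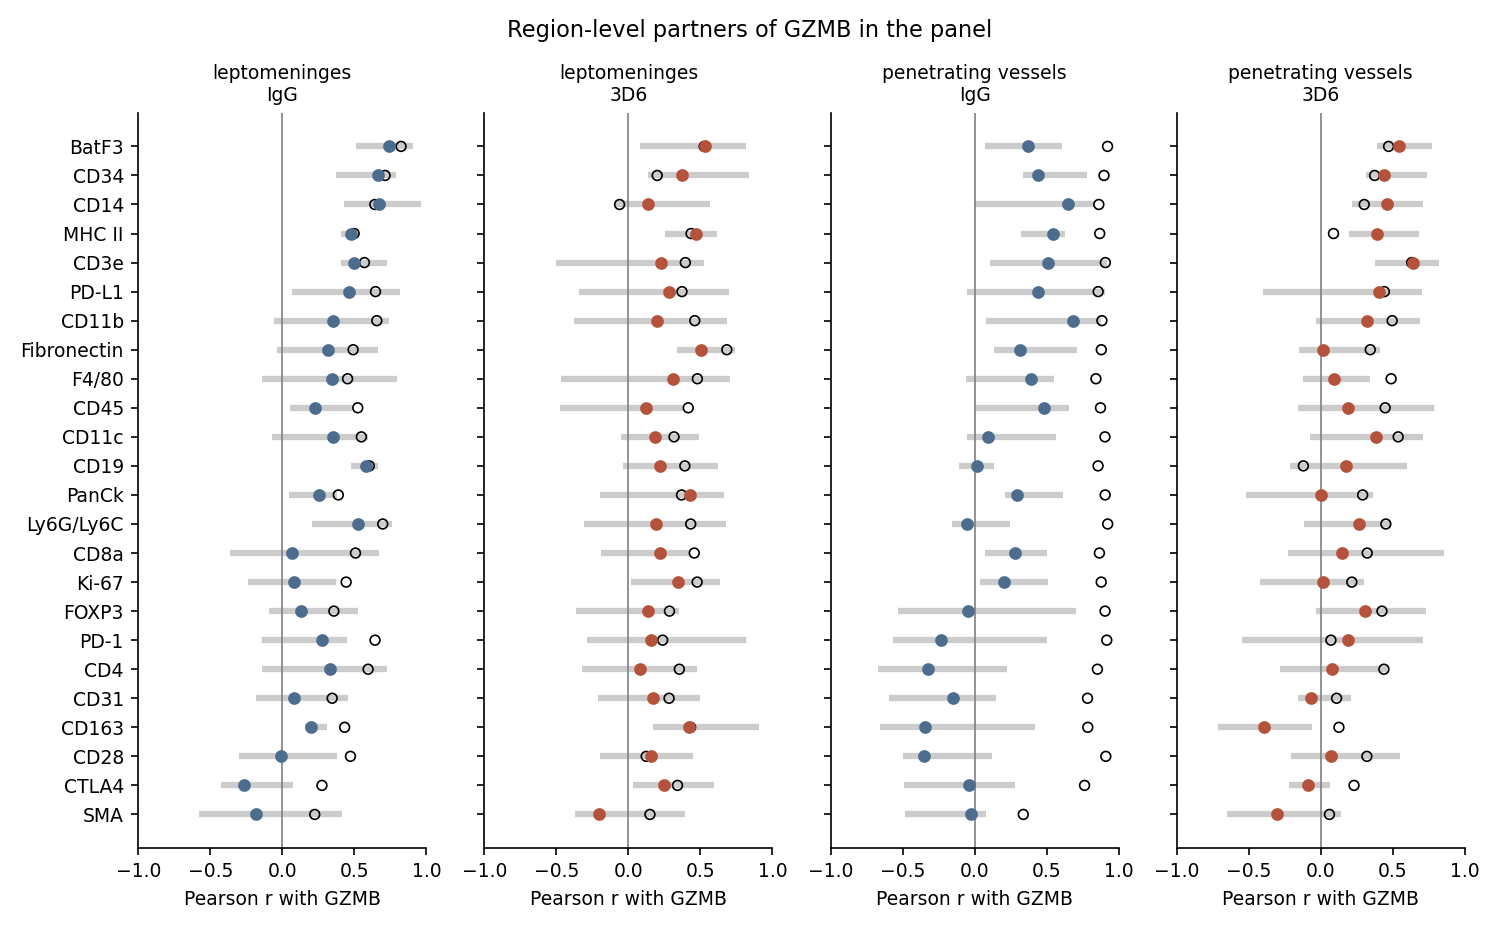
Pearson r of GZMB with each of 24 targets across regions, mouse means subtracted, for each site and treatment, ordered by mean r. Filled dots are ratios to the negative controls, grey bars run from the lowest to the highest single mouse, and open circles are undivided counts, which sit near 0.9 on penetrating vessels of IgG mice (median 0.88) and lower elsewhere.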

How the data were processed

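The table used holds digital counts per probe and region. The deposited counts are fractional, so a technical scaling preceded them, and a summary sheet lists a positive-control factor per region. By its title the table is not normalized. The study's methods name normalization to technical controls, areas and negative controls by the authors, and which steps preceded this table is not given in the sources used here. Section thickness is 10 μm in the methods and 5 μm in the labels. The deposited normalized scores and summary sheets were not used, except the number of nuclei and the warning for few nuclei. Of columns with no sample there were 0.

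Each GZMB value is a log2 ratio to the geometric mean of Rt IgG2a, Rt IgG2b and Rb IgG, without a pseudocount, and mice are compared by the mean of their regions. In the main tests mice, not regions, are the replicates, and p-values measure the spread between them. The alternative fit of every region, with the mouse as block, takes its degrees of freedom from regions. The study's unpaired test per protein was replaced by limma 3.58.1 (R 4.3.3) on mouse means adjusted for the 25 targets by Benjamini-Hochberg and read at 0.05. Exact permutation tests used all 35 splits of the mice, and all tests were two-sided. Tests between groups were unpaired, and those between sites were paired by mouse. Correlations were computed in Python 3.11.15 with pandas 2.3.3. The fits were also run on simulated data. The shift added there was larger than the treatment differences of GZMB, and targets were simulated independently. That run therefore does not bear on the power to find differences of the size seen for GZMB.

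The protein, its lists and the tests were chosen with earlier results of these data known. Named partners were the 3 highest and 2 lowest r in each group and site, plus CD3e, CD8a, CD4, CD28, CTLA4, CD45, CD11b, Adgre1, Ly6G/Ly6C, fibronectin, SMA and CD31. CD34, CD14, BatF3, MHC II and CD163 are also described in groups and sites where the rule does not name them, a choice made after their values were seen, and those values are not in the counts of alternatives. Alternatives covered normalization, averaging, an added pseudocount of 1, omission of targets under 2 times the negative controls, the adjustment, moderation of variances, the run or the mouse as a block (statmod 1.5.0), leaving out each mouse, and, for correlations, Spearman's rho, mouse means kept, the 2 most extreme regions left out and a partial r given the negative controls. Leaving out regions of few nuclei or of high background was added after the data were seen.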

Additional observations from a re-analysis of the deposited data

Results flagged for a closer look

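The undivided log2 count of GZMB in the leptomeninges of 3D6 mice was flagged because mouse 72 stood far from the other 3. It was at 9.74, and mice 77, 81 and 83 were at 8.72, 8.68 and 8.60. The gap to the nearest mouse was 0.894 of the range, above Dixon's critical value for 4 mice. As a ratio to the negative controls the same mouse was highest as well, at 5.82, with a gap of 0.390 of the range. Of 7 quantities checked in this way 1 was flagged, and chance flags about 1 in 20 groups. Mouse 72 had a median of 111.5 nuclei per leptomeningeal region, against 23.5 to 36.5 in the other 3D6 mice, and IgG mouse 29 of the same run had 97.0 nuclei with the lowest GZMB count of the 7, at 7.88. The part of nuclei or run in these values was not tested. Without mouse 72 the leptomeningeal ratio of GZMB differed by 0.80 between 3D6 and IgG mice (adjusted p = 0.192 in limma).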

How the results depend on the processing

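Over the tests of GZMB differences, 87 alternative values kept their direction and side of the threshold, 15 changed sign and 5 passed where the reported value did not. The leptomeningeal treatment difference (1.04) ran from 0.20 to 1.46 over all alternatives, with adjusted p from 0.0264 to 0.813 in limma. It passed without regions of few nuclei (1.46), with every region and the mouse as block (1.05, degrees of freedom from regions) and without IgG mouse 37. Leaving out each mouse gave 0.76 to 1.33. The penetrating difference was -0.14 with no division and 0.20 to 1.13 when each mouse was left out. With division by housekeepers the contrast of the sites was -0.66, the site difference 0.46 in all mice and 0.79 in IgG mice. Without regions of few nuclei the site difference of IgG mice was -1.14 (adjusted p = 0.0358 in limma, 2 mice). Leaving out each mouse gave -0.36 to 1.13 for the contrast, and for the site difference -0.51 to 0.23 in all mice, -1.08 to 0.41 in IgG mice and -0.19 to 0.24 in 3D6 mice. The cause of these changes was not tested. Of the 25 targets, 5 passed in the leptomeninges, 3 without moderation of variances or without mouse 29, 8 without mouse 37 and 12 with every region, while on penetrating vessels 0 passed, or 1 with every region.

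The difference in SD between leptomeningeal regions was 0.14 with housekeepers, 0.027 with no division and 0.071 as median absolute deviation, and -0.19 to -0.075 when each mouse was left out. On penetrating vessels it was 0.067 without regions of high background and -0.32 to 0.22 when each mouse was left out. The median r was 0.88 with no division on penetrating vessels of IgG mice and 0.37 with housekeepers on those of 3D6 mice. Leaving out each mouse gave medians of 0.20 to 0.41 and 0.17 to 0.39 in leptomeninges, and 0.16 to 0.28 and 0.15 to 0.25 on penetrating vessels, of IgG and 3D6 mice.

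Of 678 alternative r for the 59 named pairs of partner and group, 81 had another sign than the reported r, and 21 of these belonged to an r of at least 0.3 in size. Those 21 follow. In leptomeninges of IgG mice Adgre1 was -0.11 with mouse means kept and -0.17 without regions of few nuclei. On penetrating vessels of IgG mice CD163, CD28 and CD4 were 0.13, 0.16 and 0.052 with housekeepers, 0.79, 0.91 and 0.85 with no division, and -0.49 to 0.17, -0.43 to 0.11 and -0.52 to 0.17 when each mouse was left out. There CD28, CD4 and Adgre1 were 0.40, 0.10 and -0.22 as partial r and 0.47, 0.26 and -0.090 without regions of high background, and fibronectin was -0.20 with mouse means kept. On penetrating vessels of 3D6 mice SMA was 0.061 with housekeepers and with no division, and CD163 0.13 with no division.

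IgG and 3D6 mice share no replicate number, so they could not be paired by it. They do share readout runs, and with the run as a block the treatment difference was 1.06 in the leptomeninges (adjusted p = 0.125 in limma) and 0.75 on penetrating vessels. With 3 mice against 4, exact tests cannot go below p = 0.029.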
